A study of Chromochloris zofingiensis with 14 samples.

Results

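Close convergent gene pairs are neighbouring genes that read toward each other and whose coding regions end at most 400 bases apart. They were taken from the gene annotation deposited for Chromochloris zofingiensis, a single-celled green alga known for storing carotenoids and oil. On the 19 chromosomes, genes were sorted by start, and a pair was kept when the left gene lay on the plus strand, the right gene on the minus strand and 400 bases or fewer separated them. Of 14408 neighbouring pairs, 3721 were convergent, and 484 of these were close, which is 968 genes of 14427. A gene can have only 1 neighbour on its 3′ side, so no gene belonged to more than 1 convergent pair. The other 3237 convergent pairs, with 6474 genes, served for comparison.

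The study made 14 RNA libraries from strain SAG 211-14, 1 for each growth condition, without replicates. Its conditions were 3 light levels (40, 100 and 400 μmol photons per square metre and second), 48 h of darkness, 1 h without nitrogen, phosphorus, sulfur or iron, 2 h of 1 mM hydrogen peroxide, rose bengal at 5 μM in a shorter and a longer treatment, glucose at 20 mM for 72 h, and 4 h of anaerobic culture in the light and in the dark. The rose bengal treatment labelled low had 0.5 h of dark and 1 h of light, and that labelled high had 1 h and 3 h. Apart from the low light, high light and dark cultures, all were at 100 μmol photons per square metre and second. Expression and read depth were not analysed here, and no condition was compared, because the file used holds gene positions and model scores only. Each gene had 1 model, and 0 gene spans reached past the coding segments, so every distance runs between the coding ends of the genes, and where the untranslated ends lie is not annotated.

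The 3′ end of a messenger RNA is made by cleavage and polyadenylation downstream of the stop codon. When genes converge, these ends can form between the genes or inside the facing gene, on opposite strands, and a transcript that runs into the neighbour is antisense to it. Divergent neighbours share a 5′ region with both promoters, and neighbours on the same strand have a 3′ end followed by a promoter. No sequence of the stretches between the genes was read.

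The distance between the facing coding ends had a median of 257 bases, with quartiles of 136 and 323.5 bases and a range of 3 to 400. Distances above 200 bases made up 133 pairs at 201 to 300 and 169 at 301 to 400. At most 50 bases apart were 65 pairs, against 34 pairs at 51 to 100 bases and 83 at 101 to 200. The pairs were chosen by strand and by these distances, which are given as a description. In bins of 50 bases the number of convergent pairs was 34 at 51 to 100, 96 at 301 to 350 and 73 at 351 to 400, and it was highest, at 125, at 801 to 850. The threshold therefore cuts through a continuous distribution. In the 10 bases just inside it, 20 pairs had a median coding length of 735 bases and 3.2 introns per gene, and in the 10 bases just outside it, 16 pairs had 1080 bases and 4.625 introns.

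Orientations differed in the share of neighbours at most 400 bases apart, and both orientation and distance enter the rule, so no test was made. Close pairs were 13.0% (11.9 to 14.1, 95% Clopper-Pearson interval) of convergent neighbours. At the same distance there were 214 of 3723 divergent pairs, 5.75% (5.02 to 6.54), and 1731 of 6964 pairs on the same strand, 24.9% (23.8 to 25.9). On each of the 19 chromosomes the convergent share lay above the divergent share and below the same-strand share. At 20 bases or less there were 24 convergent pairs, 0 divergent pairs and 1 pair on the same strand. The smallest divergent distance was 44 bases and the smallest on the same strand was 1 base. Over all distances the order was another, with a median of 1054 bases for convergent, 939 for divergent and 927.5 for same-strand neighbours.

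**Figure D1:**
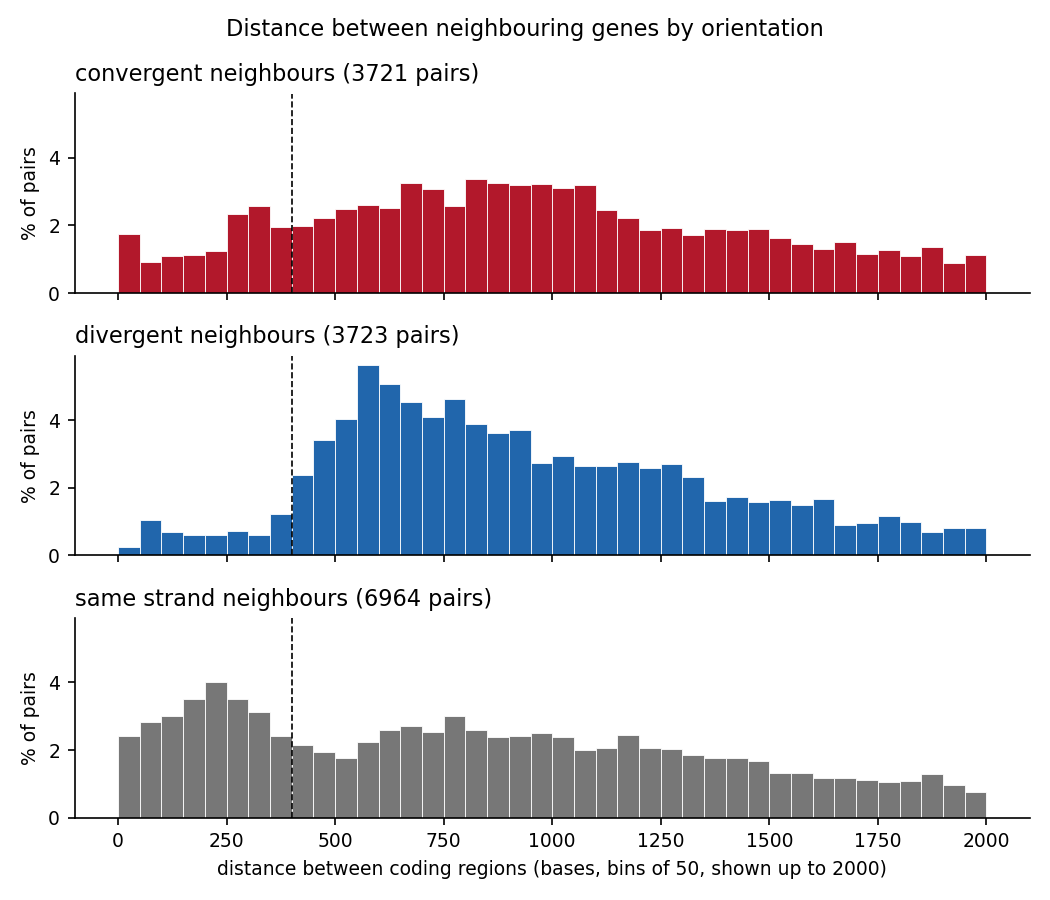
Distance between the coding regions of neighbouring genes (x axis, bases, bins of 50 up to 2000) as a percentage of all pairs of that orientation (y axis), with the 400-base threshold dashed. Convergent pairs show a first bar of 65 pairs at 50 bases or less and a broad maximum near 801 to 850 bases, whereas few divergent pairs lie below 400 bases and same-strand pairs are frequent there.

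Close pairs were spread over all 19 chromosomes, with 5 on chromosome 17 and 43 on chromosome 4. As a share of the convergent pairs of a chromosome they ran from 8.47% (2.81 to 18.7) on chromosome 17 to 20.0% (11.4 to 31.3) on chromosome 19. The intervals of all 19 chromosomes, which cover counting error only, included the overall share of 13.0%. Per megabase there were between 2.78 close pairs on chromosome 17 and 13.0 on chromosome 19, with a median of 8.55. In the outer 10% at the chromosome ends, both ends together, lay 108 close pairs, 22.3% (18.7 to 26.3), and 608 of the more distant pairs, 18.8% (17.5 to 20.2). The 2 intervals overlap, and the difference was not tested.

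**Figure D2:**
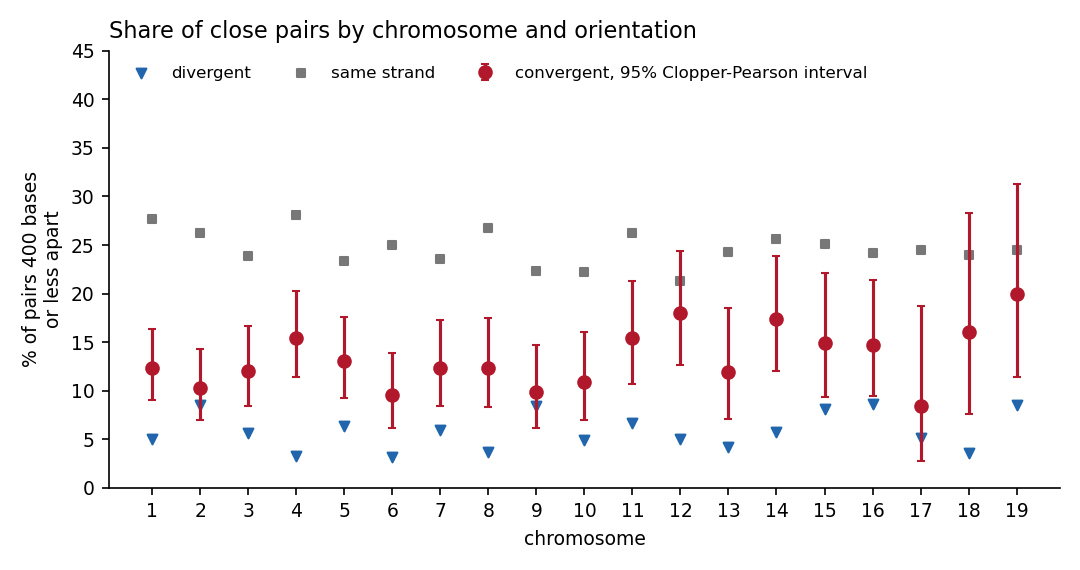
Share of neighbouring pairs that are at most 400 bases apart (y axis, percent) on each chromosome (x axis), with red circles and 95% Clopper-Pearson intervals for convergent pairs, blue triangles for divergent pairs and grey squares for same-strand pairs. Red circles lie between 8.47% and 20.0%, above the triangle and below the square on every chromosome.

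Genes in close pairs were shorter than genes in more distant convergent pairs. Their median coding length was 903 bases (quartiles 384 and 1629.75), against 1104 bases (630 and 1848). Taken within chromosomes, which keeps differences between chromosomes out of the comparison, the median was lower by 257 ± 230 bases (mean close minus far −256.7, SD over n = 19 chromosomes). The direction was the same on 18 of 19 chromosomes, with chromosome 1 as the exception at 1239 against 1140 bases (exact two-sided sign-flip permutation test over chromosomes, adjusted p = 0.000229). P-values were adjusted by the Benjamini-Hochberg method over the 10 structural measures compared. The largest differences were on chromosome 18, with 384 against 1167 bases, and chromosome 19, with 480 against 1143. Chromosome 18 had only 9 close pairs and chromosome 19 only 14.

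The genes of close pairs also had fewer introns. They carried 3.40 ± 4.32 introns (SD, n = 968 genes) against 4.16 ± 4.57 (SD, n = 6474 genes), and the difference within chromosomes was −0.82 ± 0.82 introns (SD, n = 19 chromosomes), negative on 16 of them (exact sign-flip permutation, adjusted p = 0.00185). A single coding segment without introns was found in 206 close genes, 21.3%, against 15.8% of the others, a difference of 5.38 ± 6.91 percentage points within chromosomes and positive on 16 of 19 (exact sign-flip permutation, adjusted p = 0.00706). By distance, this share was 26.2% at 50 bases or less, 47.1% at 51 to 100 and 25.9% at 101 to 200. It was 13.2% at 201 to 300 bases, below the 15.8% of the others, and 18.3% at 301 to 400. Mean intron number was 2.28 to 2.87 in the classes up to 200 bases. It was 3.93 at 201 to 300 bases, against 4.02 to 4.43 beyond 400. Both differences were thus largest at 200 bases or less. Both genes lacked introns in 34 close pairs, 7.02%, against 2.63% of the more distant pairs. At least 10 introns were present in 65 close genes, 6.71%, and 8.57% of the others. The gene span, introns included, had a median of 1596.5 bases in close pairs and 1987.5 in the others (within chromosomes −473 ± 488 bases, SD, n = 19, lower on 18, exact sign-flip permutation, adjusted p = 0.000369).

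**Figure D3:**
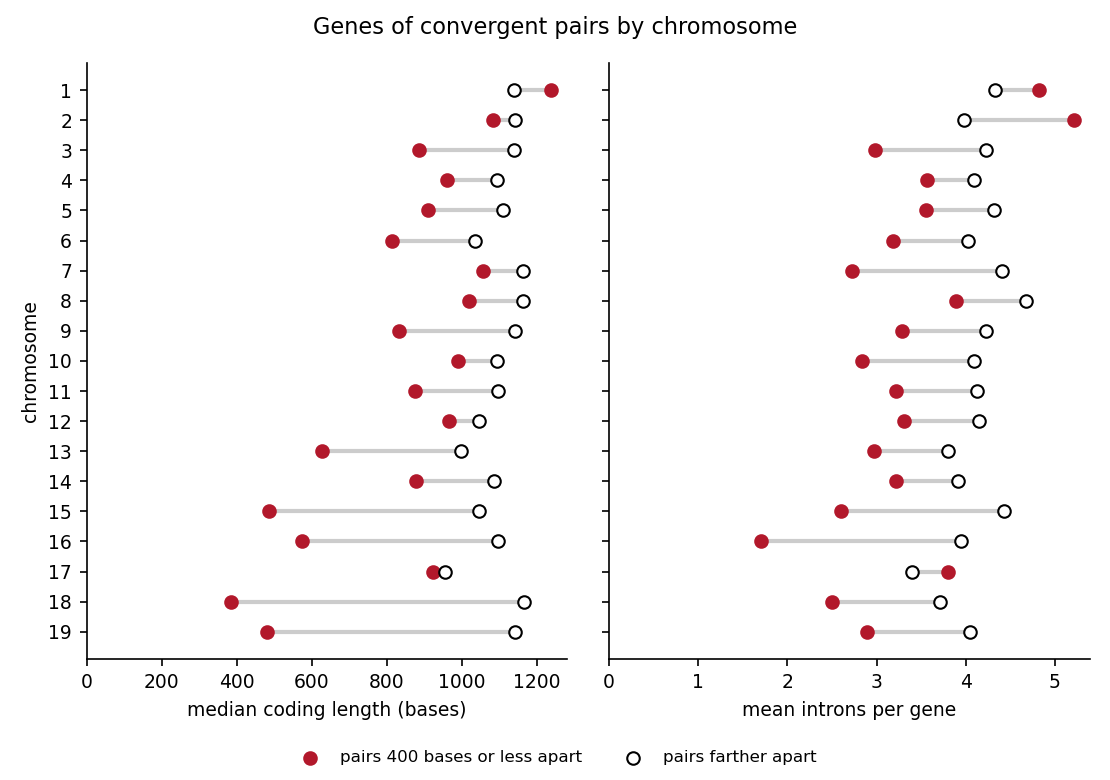
Median coding length (left, bases) and mean number of introns per gene (right) for each chromosome (y axis), with filled red points for genes of convergent pairs at most 400 bases apart and open points for genes of convergent pairs farther apart. The red point lies left of the open point on 18 of 19 chromosomes for coding length and on 16 of 19 for introns.

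At the facing 3′ ends themselves, the last coding segment was shorter, and for the last intron the test did not pass. The segment that carries the stop codon had a median of 264 bases in close pairs and 303 in the others. By distance the median was 215.5 to 271.5 bases in the classes up to 300 bases and 284.5 at 301 to 400. The next classes, up to 1000 bases, had 281 and 283.5, and those beyond had 309 and 336. At 301 to 400 bases the segment was therefore not shorter than in the nearest more distant classes. In genes without introns, 21.3% of close genes and 15.8% of the others, this segment is the whole coding region. The measure therefore partly repeats coding length. The difference within chromosomes was −38.4 ± 31.1 bases (SD, n = 19), negative on 18 chromosomes and positive on chromosome 8 (exact sign-flip permutation, adjusted p = 0.000369). For the intron nearest the 3′ end the medians were 271.5 and 271 bases, and the difference within chromosomes was 2.29 ± 14.0 bases (SD, n = 19, exact sign-flip permutation, adjusted p = 0.488). The first coding segment, at the opposite end of the gene, had similar medians of 189.5 and 188 bases, for which no test was made. Whether the difference is particular to the 3′ end was not tested.

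By the median, the surroundings of close pairs were denser as well. From the 5′ end of a close gene to the neighbour on that side, the median distance was 778 bases, against 950 for the others, and within chromosomes the difference was −171 ± 183 bases (SD, n = 19, lower on 15 chromosomes, exact sign-flip permutation, adjusted p = 0.00213). With chromosome means in place of medians the test did not pass (−345 bases, adjusted p = 0.433, exact sign-flip permutation). Pooled over all genes, the mean distance went the other way, with 1357 bases for close genes and 1330 for the others. All 3 distances of a pair, the gap and both flanks, were at most 400 bases for 39 of 484 close pairs, 8.06%. Both flanks were that short for 56 of 3232 more distant pairs, 1.73%. These 39 pairs lay on 15 chromosomes, and 19 of their 78 genes had 300 coding bases or fewer. Whether the neighbour on the 5′ side lay on the opposite strand did not pass the test, with 52.2% of close genes and 52.3% of the others (within chromosomes −2.56 ± 9.91 percentage points, SD, n = 19, exact sign-flip permutation, adjusted p = 0.342). Of the 484 close pairs, 449 stood alone, 16 runs held 2 pairs in a row and 1 run held 3. How many runs the share of close pairs alone would give was not computed, and clustering was not tested.

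Short gene models were most frequent among the closest pairs. Coding regions of 300 bases or fewer, a limit chosen after the values were seen, were found in 164 of 968 close genes, 16.9%, and in 344 of 6474 others, 5.31%. Over all genes of the chromosomes the share was 6.50%. By distance it was 33.8% at 50 bases or less, 35.3% at 51 to 100, 18.1% at 101 to 200, 10.2% at 201 to 300 and 11.5% at 301 to 400, and beyond 400 bases it lay between 5.03% and 6.96%. The median coding length followed, with 439.5 bases in the closest class, 460.5 in the next, 855 at 101 to 200 bases, and 1093.5 and 1030.5 bases in the classes above 200, close to the 1071 to 1165.5 bases of the classes beyond 400. Of the close pairs, 153 held a short gene, 142 with 1 and 11 with 2, and their median gap was 142 bases, against 272 in the 331 pairs without one. The longer partner in the 142 pairs had a median of 1210.5 coding bases. In pairs with both coding regions over 300 bases, compared the same way on 17 chromosomes, the difference in coding length was −98.7 bases and did not pass the test (exact sign-flip permutation, adjusted p = 0.301). Under the same limit the differences in intron number (−0.61, adjusted p = 0.0905), genes without introns (0.451 percentage points, adjusted p = 0.912), gene span (−194 bases, adjusted p = 0.171), last coding segment (−27.7 bases, adjusted p = 0.0905) and 5′ flank (−135 bases, adjusted p = 0.0543) did not pass the exact sign-flip permutation either. This limit acts on coding length itself and leaves fewer pairs.

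**Figure D4:**
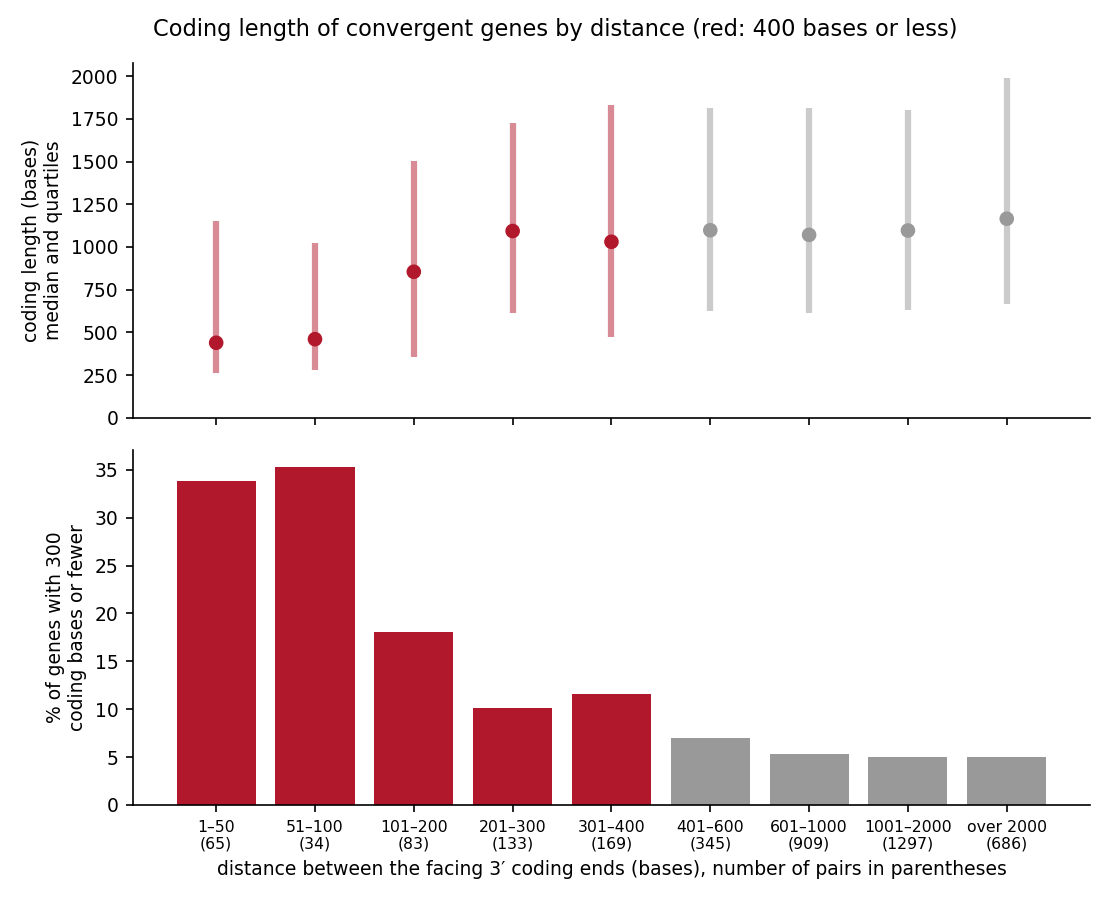
Coding length of the genes of convergent pairs by the distance between the facing coding ends (x axis, bases, with the number of pairs in parentheses), as median with quartiles (top, bases) and as the percentage of genes with 300 coding bases or fewer (bottom), red for distances of 400 bases or less. The medians are 439.5 and 460.5 bases in the 2 closest classes and above 1000 in all classes beyond 200 bases.

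The deposited model score, whose meaning the file does not state, gave no difference that passed the test. Its mean was 0.736 in close pairs and 0.728 in the others (within chromosomes 0.00994 ± 0.0286, SD, n = 19, exact sign-flip permutation, adjusted p = 0.209). The 164 short genes of close pairs had a median score of 0.85, against 0.77 for the longer genes of close pairs, and 86 of them, 52.4%, had no intron. Short genes of more distant pairs had a median score of 0.8, against 0.76 for the longer ones, and 45.9% had no intron. Models made by hand were rare, 6 of 968 close genes and 53 of the others. Coding length was a multiple of 3 in all close genes, as in all 14427 genes of the chromosomes.

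Inside a pair the lengths of the genes had a rank correlation near 0. Across 484 close pairs Spearman's rho between the coding lengths of the plus and minus gene was −0.0185, and across 3237 more distant pairs it was 0.0105. For intron number rho was 0.114 and −0.000102. Pairs share a place on a chromosome and a prediction run, and these coefficients are descriptions. The median ratio of the longer to the shorter coding region was 2.45 in close pairs and 2.14 in the others. Plus genes had a median of 949.5 and minus genes of 882 coding bases. A whole close pair spanned a median of 3907 bases, of which the gap took 5.31%.

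The 2 smallest gaps were 3 bases. On chromosome 8, Cz08g31180 (3153343 to 3154143) and Cz08g31190 (3154147 to 3154677) each had a single coding segment, of 801 and 531 bases. On chromosome 16, Cz16g05240 (559317 to 560734) had 711 coding bases in 5 segments and faced Cz16g05250 (560738 to 561969) with 429 in 2. At 4 bases stood Cz02g20270 with Cz02g20280 and Cz02g21270 with Cz02g21280, both on chromosome 2, and 5 further pairs stood at 5 bases. Of those, Cz02g09230 with Cz02g09240, Cz02g21190 with Cz02g21200 and Cz02g35060 with Cz02g35070 also lay on chromosome 2, Cz12g13160 with Cz12g13170 on chromosome 12, and Cz15g18070 with Cz15g18080 on chromosome 15. In these 9 pairs coding lengths ran from 213 to 1488 bases. None of the 48 genes at 20 bases or less had a name, 16 had 300 coding bases or fewer, and 16 had no intron. Among all 968 close genes, 3.00% had a name, 16.9% had 300 coding bases or fewer and 21.3% had no intron.

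The extremes of length were both found at small gaps. Cz02g22160 (chromosome 2, 2265427 to 2333833), whose model (score 0.21) held 66 segments and 55602 coding bases, was the longest coding region of all chromosomal genes, and it ended 39 bases from Cz02g23010. Without it the close genes of chromosome 2 had 4.20 introns on average in place of 5.22, against 3.98 in more distant pairs, and the close genes at 50 bases or less had 2.04 ± 2.98 in place of 2.52 ± 6.27 (SD, n = 129 and 130 genes). The difference in introns over 19 chromosomes was then −0.88 ± 0.70 (SD, n = 19, exact sign-flip permutation, adjusted p = 0.000267). The shortest summed coding length, 453 bases, occurred in 2 pairs. Cz04g38250 with 243 bases and Cz04g38260 with 210 were 21 bases apart, and Cz05g14200 with 240 and Cz05g14210 with 213 were 32 bases apart. The 1 run of 3 close pairs lay on chromosome 6 and was noticed after the values were seen. Cz06g07020 and Cz06g07030 were 177 bases apart, Cz06g07040 and Cz06g07050 were 25 apart, and after a stretch of 31913 bases without genes Cz06g07060 and Cz06g07070 were 6 apart.

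Names were given to 29 of the 968 close genes, on 15 chromosomes, and in no close pair were both genes named. Among more distant pairs both were named in 0 as well. The named share was 3.00% in close pairs and 3.97% in the others (within chromosomes −0.556 ± 2.85 percentage points, SD, n = 19, exact sign-flip permutation, adjusted p = 0.450). Counted the other way, 29 of 286 named genes of convergent pairs were in close pairs, 10.1% (6.90 to 14.2, Clopper-Pearson), where 13.0% of all convergent pairs were close. Named close genes had a median of 1149 coding bases (582 to 2565) and 5.03 ± 3.30 introns (SD, n = 29 genes), near the 1077 bases and 4.57 ± 3.29 introns of the 257 named genes in more distant pairs. Their unnamed partners had a median of 711 bases (255 to 4518) and 3.90 ± 3.44 introns (SD, n = 29 genes), and 17 of the 29 partners were shorter than the named gene. The gap exceeded 200 bases in 22 of the 29 pairs and was 50 or less in 2. Of all 484 close pairs, 133 had gaps of 201 to 300 bases, 169 of 301 to 400 and 65 of 50 or less. The difference was not tested.

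**Figure D5:**
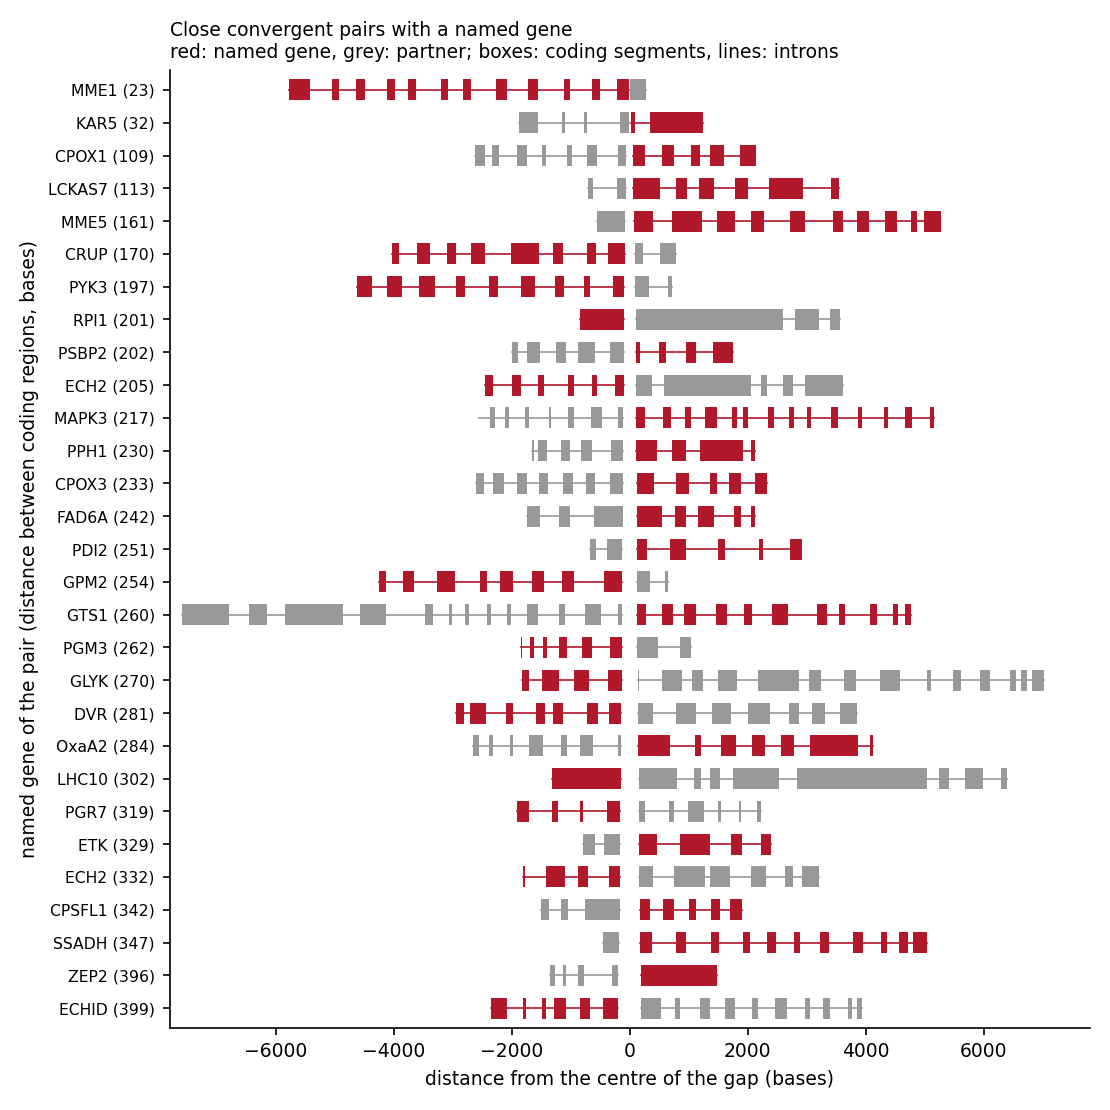
The 29 close pairs that hold a named gene, ordered by gap (top, smallest) and aligned on the centre of the gap (x axis, distance in bases; plus-strand gene on the left, minus-strand gene on the right), with boxes for coding segments and lines for introns, named genes in red and partners in grey. Gaps run from 23 bases at MME1 to 399 at ECHID, and the partner of MME1 is a single segment of 258 bases.

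Central carbon metabolism held the smallest gap of a named gene. MME1 (Cz15g01060, chromosome 15, 125803 to 131566), an NADP-malic enzyme, which turns malate into pyruvate and yields NADPH, had 1959 coding bases in 12 segments and ended 23 bases from Cz15g01070, a single segment of 258 bases. MME5 (Cz07g26110, chromosome 7, 2653342 to 2658530), another NADP-malic enzyme of 2565 bases in 10 segments, was 161 bases from Cz07g26090. The remaining 3 malic enzymes on chromosomes were not in close pairs, with MME4 916 and MME2 1644 bases from a convergent neighbour and MME6 followed by a gene on its own strand. PYK3 (Cz14g14130, chromosome 14, 1436263 to 1440785), a pyruvate kinase, the enzyme of the last step of glycolysis, had 1761 bases in 9 segments and a gap of 197 bases. PYK1 and PYK2 had convergent neighbours at 1001 and 1214 bases. The phosphoglycerate mutase PGM3 (Cz14g01200), which interconverts 3- and 2-phosphoglycerate, was 262 bases from its partner, and the phosphoglucomutase GPM2 (Cz15g21100) was 254 bases from a partner of 258 coding bases. The other PGM models in convergent pairs had gaps of 860 to 1958 bases, and GPM1 had one of 5084. RPI1 (Cz05g13260), a ribose-5-phosphate isomerase of the pentose phosphate and Calvin cycles, was a single segment of 738 bases at 201 bases from Cz05g13270, whose last coding segment was 2505 bases long. Another model named RPI1 (Cz09g17220) was 528 bases from its convergent neighbour. GLYK (Cz05g35210), the glycerate kinase that ends the photorespiratory pathway, had a gap of 270 bases, and its partner Cz05g35220 ended in a coding segment of 17 bases. SSADH (Cz05g02090), a succinate semialdehyde dehydrogenase of 11 coding segments, was 347 bases from its partner.

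Pigment genes were found on both the tetrapyrrole and the carotenoid side. Coproporphyrinogen-III oxidase, which converts coproporphyrinogen to protoporphyrinogen on the way to chlorophyll and haem, had 3 gene models, all in convergent pairs and 2 of them close. Of all convergent pairs 13.0% were close, and with 3 models the share was not tested. CPOX1 (Cz06g22110, chromosome 6, 2235227 to 2237305) had 1053 coding bases and a gap of 109 bases, and CPOX3 (Cz01g34010, chromosome 1, 3400523 to 3402734) had 1059 and a gap of 233. Both had 5 coding segments, and both faced a partner of 7 segments. CPOX2 was 1133 bases from its convergent neighbour. DVR (Cz03g06230), the divinyl reductase of chlorophyll synthesis, was 281 bases from its partner. PPH1 (Cz02g13050), a pheophytinase, which removes the phytol tail in chlorophyll breakdown, had a gap of 230, and a second model named PPH1 (Cz10g19170) one of 885. PPH3 stood 3301 bases from its convergent neighbour. GTS1 (Cz19g08190), a tRNA synthetase that supplies the glutamyl-tRNA from which tetrapyrroles start, had a gap of 260. CRUP (Cz07g07080, chromosome 7, 719462 to 723411), described as a CruP-type lycopene cyclase paralog, had 1809 bases in 8 segments and a gap of 170. ZEP2 (Cz05g31040, chromosome 5, 3105352 to 3106629), a zeaxanthin epoxidase of the xanthophyll cycle, was a single segment and lay 396 bases from Cz05g31030, near the threshold.

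Of 42 genes in convergent pairs that matched the word list for light harvesting and photosystems, 2 were close, 4.76%, where 13.0% of all convergent pairs were close. PSBP2 (Cz09g13140, chromosome 9, 1357140 to 1358783), a photosystem II subunit P of the oxygen-evolving side, had 708 bases in 4 segments and a gap of 202. LHC10 (Cz08g26140, chromosome 8, 2663521 to 2664687), a light-harvesting protein described with photosystem I, was a single segment of 1167 bases with a gap of 302, and it was the only one of 10 LHC-numbered genes in convergent pairs that was close. The other 9 had gaps from 873 to 10264 bases. Outside that list, PGR7 (Cz11g03230), named as a proton gradient regulator, had a gap of 319. OxaA2 (Cz01g09150), a membrane insertion protein, had one of 284, and CPSFL1 (Cz05g05060), a chloroplast Sec14-like protein, one of 342. Another model named CPSFL1 (Cz03g12090) stood 2199 bases from its convergent neighbour.

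Fatty acid and lipid genes included 3 enoyl hydratase models. KAR5 (Cz11g27250, chromosome 11, 2792277 to 2793510), a ketoacyl-ACP reductase of fatty acid elongation, ended in a coding segment of 77 bases at 32 bases from Cz11g27240. The other 4 KAR models in convergent pairs had gaps of 593 to 1471 bases. All 5 enoyl hydratase models lay in convergent pairs and 3 were close, where 13.0% of all convergent pairs were close. With so few models the share was not tested. The 2 models named ECH2 (Cz09g10030 and Cz11g22170) had gaps of 205 and 332 bases, and ECHID (Cz04g19010), just inside the threshold, had 399. ECH3 stood at 498 and ECH1 at 3948. LCKAS7 (Cz18g09230, chromosome 18, 977509 to 981003), a synthase of very long fatty acid chains, had 1806 bases and a gap of 113 to a partner of 255 coding bases. Of 18 LCKAS models 8 lay in convergent pairs, and this was the close one. A second model named LCKAS7 (Cz11g13060) stood 2489 bases from its convergent neighbour. FAD6A (Cz08g21150, chromosome 8, 2168258 to 2170265), a delta-12 desaturase, had a gap of 242, and ETK (Cz11g15030), an ethanolamine kinase at the start of phosphatidylethanolamine synthesis, one of 329. The other FAD models in convergent pairs had gaps of 1219 to 3264 bases. The remaining named genes were MAPK3 (Cz04g03010) with 14 coding segments and a gap of 217, and PDI2 (Cz17g07120) with a gap of 251.

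Counted over word lists for pathways, close genes were 2 of 9 carotenoid genes in convergent pairs, 3 of 18 chlorophyll genes, 2 of 42 for light harvesting and photosystems, 2 of 20 for glycolysis and 3 of 52 for lipids. The lists for carbon fixation, with 2 genes in convergent pairs, plastid import and quality control, with 17, and redox proteins, with 5, matched 0 close genes. The word patterns missed close genes described above, among them RPI1, OxaA2, ETK, PDI2 and the enoyl hydratases ECH2 and ECHID. These counts therefore speak for the matched genes and not for whole pathways, and no share was tested against the 13.0% of all convergent pairs.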

How the data were processed

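RNA-seq libraries were made from 14 cultures, and the deposited file used here is the gene annotation of the whole series. It holds positions in bases, counted from 1 on the sequences whose names and lengths the file's header lists. Per the file headers and columns deposited by the authors, 15170 of 15369 gene models have a score from 0.01 to 1. The models were made by AUGUSTUS or by hand. STAR (2.4.0j) and Cuffdiff (2.2.1) are listed in the submitters' processing notes. Neither the build's name nor the prediction settings were given in the sources used here. No counts were used, since the file has no columns for samples.

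Neighbours were found with Python 3.11.15 and pandas 2.3.3. An intron is the gap between coding segments of a gene. For 10 structural measures, genes of close and of more distant convergent pairs were summarised within each chromosome with at least 5 close pairs. The mean of the differences was tested by exact two-sided sign flips over chromosomes, tested on simulated data first, with Benjamini-Hochberg adjustment and a threshold of 0.05. Chromosomes were the unit. Genes are not independent replicates, and no p-value describes variation between cultures. Intervals are 95% Clopper-Pearson. Pairs named are the 5 with the smallest gap and ties, the longest and shortest by summed coding length, up to 3 per pathway word list and every pair with a named gene, the last added after the values were seen. Short list words such as LHC or TIC were matched at word starts. The members, lists and tests were chosen with earlier results of these data known.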

Additional observations from a re-analysis of the deposited data

How the results depend on the processing

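Differences in coding length, intron number, share of genes without introns, gene span and last coding segment kept their direction and stayed past the threshold in the following settings. These were gap limits of 300 and 500 bases, far pairs of at most 2000 bases only, and both model scores at least 0.5. Further settings were no manual models and no chromosomes 17 and 18. With means for medians, and the median for the mean in intron number, they passed too. The share of genes without introns has no such exchange and was not run there. They also did so with each chromosome left out in turn, where the coding length difference ran from −276.5 to −227.5 bases. The 5′ flank difference did so too, except with means, where it was −345 bases (adjusted p = 0.433, exact sign-flip permutation). With 51 to 400 bases as close, added after the data were examined, genes without introns no longer passed (4.32 percentage points, adjusted p = 0.0520, exact sign-flip permutation), and the other 5 differences did. With both coding regions over 300 bases, also added then, none of the 6 passed, at −98.7 coding bases, −0.61 introns, 0.451 percentage points without introns, −194 bases of span, −27.7 of last segment and −135 of flank. There the share of divergent 5′ neighbours (3.88 percentage points) and the score (−0.000333) changed sign. The last intron, which passed nowhere, changed sign at 300 bases (−3.53 bases), with means (−2.08) and with both scores at least 0.5 (−1.25). Without the gene Cz02g22160, the third addition, no call changed.

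The number of close pairs depends on the limit and the models. It was 315 at 300 bases (8.47% of convergent pairs), 640 at 500 bases (17.2%), 311 with both scores at least 0.5, 18 of them with a named gene, and 315 (10.7%) with neighbours redefined after models scored under 0.5 were dropped. No paired analysis was possible because the annotation holds no sample values and each condition has 1 library. Coding ends stand in for transcript ends throughout, and the predicted models, short ones included, were not checked against reads.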
